A study of Mus musculus with 12 samples.

Results

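Adding a CSF1R inhibitor to paclitaxel was examined in MMTV-PyMT mammary tumours by setting the 2 tumours labelled PLX+PTX against the 2 labelled PTX, across 750 endogenous genes of an immuno-oncology panel. These are 4 of the 12 samples of the series. The other 8 carry the same pair of agents plus an antibody against PD-1 (6 samples) or PD-L1 (2 samples). They serve here to estimate the spread and as a range of reference. The anti-PD-1 samples are further labelled R or NR and were fitted as separate groups, which makes 5 groups in all. The tumours arise because the MMTV promoter drives polyoma middle T antigen in mammary epithelium; all groups share this transgene, and each sample was a small piece of snap-frozen whole tumour. The labels give the agents as PLX and PTX and the tissue as mammary gland; dose, schedule, age and strain background are not given in the sources used here, and neither an untreated group nor a group given PLX alone was analysed here. Whether tumours of 1 group were taken from different mice is not stated in the labels; p-values therefore reflect only how these samples vary, and part of that variation may be technical.

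CSF1R is the receptor tyrosine kinase through which the ligands CSF1 and IL-34 keep monocytes and macrophages alive and dividing, and its inhibition is used in mice to lower the number of macrophages in tissues. Tumours of the MMTV-PyMT model are rich in macrophages, which are known for recruitment by the chemokine CCL2 and for roles in vessel growth, matrix turnover and restraint of T cells. Paclitaxel stabilises microtubules and arrests dividing cells in mitosis.

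Barcode counts were divided by each library's housekeeping factor, and all levels below are such scaled counts; levels of different genes are not compared, since probes differ in efficiency. The endogenous counts summed to 390582 to 531086 in the PTX libraries and to 328325 to 342694 in the PLX+PTX libraries, and PTX replicate 1 was the deepest of the 12. A gene was called detected in a library when its raw count exceeded the mean plus 2 SD of the negative-control probes, which lay at 28.2 and 32.8 counts in PTX and 30.1 and 20.3 in PLX+PTX. After scaling, the mean of the negative controls was 10.7 and 14.1 in PTX and 16.5 and 13.1 in PLX+PTX, which is the background under the low levels given below. In the 8 antibody-treated libraries it ran from 9.3 to 32.5, so their range at low levels is partly background. Of the 750 genes, 433 were detected in all 4 libraries and 175 in none. The epithelial adhesion gene Epcam, a marker of the tumour cells, gave 6276 and 6533 in PTX and 6581 and 6229.8 in PLX+PTX, which places the 4 pieces close together in this marker (log2 fold change 0.0001, SE 0.29).

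No gene passed the test between the groups. By edgeR's quasi-likelihood test with Benjamini-Hochberg adjustment, 0 of 615 tested genes passed upward (0.0%) and 0 downward (0.0%), the smallest adjusted p was 0.996, and this is therefore the lower bound of the adjusted p of every gene named below. At an unadjusted p under 0.05 there were 12 genes (1.95%). DESeq2 and limma-voom also called 0, with 15 and 9 genes at an unadjusted p under 0.05. The standard error of the log2 fold change had a median of 0.40, and the 95% interval lay wholly between −1 and 1, that is within 2-fold either way, in 213 genes (34.6%); for the other genes the interval reached beyond a 2-fold difference in at least 1 direction. With 2 libraries against 2, an exact permutation test of a single value cannot give a two-sided p below 0.333.

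Order of the libraries is therefore given as a description. Both PLX+PTX libraries lay above both PTX libraries in 116 genes (18.9%) and below both in 100 (16.3%), while 399 overlapped. Each count of list genes without overlap given below is to be read beside these shares. The fitted log2 fold change was above 0 in 332 genes (54.0%) and below 0 in 283 (46.0%), with a median of 0.03. Fitted changes of more than 2-fold were seen in 15 genes above 0 and 5 below. The libraries of a group differed among themselves as well: the median fold between them was 1.20 in PTX and 1.30 in PLX+PTX, and 41 and 56 genes were more than 2-fold apart.

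**Figure D1:**
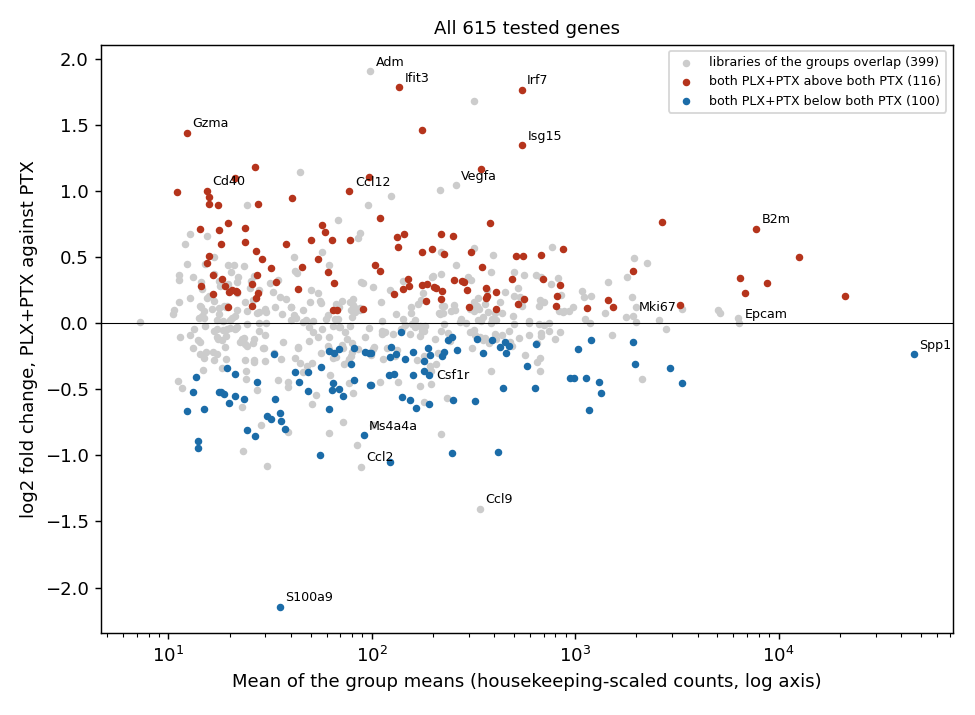
Log2 fold change of PLX+PTX against PTX (vertical axis) against the mean of the group means in housekeeping-scaled counts (horizontal, log axis) for the 615 tested genes. Red points are the 116 genes with both PLX+PTX libraries above both PTX libraries, blue points the 100 with both below and grey points the 399 that overlap; Ifit3, Irf7 and Isg15 lie near the top and S100a9 and Ccl9 near the bottom, and none passed the test.

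The 12 genes of smallest p were mostly at background level. Ccl12, which encodes a chemokine of mouse that attracts monocytes, was detected in all 4 libraries and gave 55.6 and 47.9 in PTX and 92.1 and 115 in PLX+PTX (log2 fold change 0.998, SE 0.34, unadjusted p = 0.0124 by edgeR). Its PLX+PTX libraries lay above both PTX libraries, and PLX+PTX replicate 2 also lay above the 94.7 that was the highest of the 8 antibody-treated libraries. Ifit3 and the growth factor gene Tgfb3 were the other 2 of the 12 detected in every library; Tgfb3 gave 1689 and 2254 in PTX and 4133 and 2571 in PLX+PTX (log2 fold change 0.77, SE 0.32). Loxl2, a lysyl oxidase that crosslinks collagen, gave 40.03 and 28.7 against 18.04 and 20.02 (log2 fold change −0.85, SE 0.33), and was detected in 3 of the 4. The lymphocyte chemokine gene Xcl1, with 11.1 and 16.2 against 29.4 and 28.7, was detected in the PLX+PTX libraries only.

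Beneath those, 7 of the 12 were detected in a single library each. S100a9, a calcium-binding protein of neutrophils, had raw counts of 180 and 21 in PTX and 12 and 17 in PLX+PTX, so that PTX replicate 1 alone stood clear of background; the log2 fold change of −2.14 was −0.23 without that library. The granule protease gene Gzma had 13 and 8 raw counts in PTX and 19 and 21 in PLX+PTX, detected in PLX+PTX replicate 2 only. Cd40, a receptor of antigen-presenting cells that receives T cell help, the stem cell transcription factor gene Sox2, the T cell costimulator gene Cd28 and the interferon-induced chemokine gene Cxcl11 each had between 11 and 29 raw counts and were likewise detected in PLX+PTX replicate 2 only, whose detection limit was the lowest of the 4. Cd200r1, an inhibitory receptor of myeloid cells, had 42 and 18 raw counts in PTX and 11 and 10 in PLX+PTX.

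The receptor that the inhibitor addresses was itself measured. Csf1r gave 319.7 and 133 in PTX and 134 and 195 in PLX+PTX. The groups overlapped: PTX replicate 1 was the highest of all 12 libraries, while PTX replicate 2 was the lowest of the 4 and lay inside the 66.9 to 158 of the 8 antibody-treated libraries. The log2 fold change was −0.46 with a 95% interval of −1.46 to 0.54, and it turned to 0.31 without PTX replicate 1. Csf1, one of its ligands, gave 186 and 164 in PTX and 207 and 138 in PLX+PTX and Il34, the other, 24.5 and 33.1 against 24.7 and 22.6, with overlap in both (log2 fold changes −0.02 and −0.28). Csf2rb, the shared receptor chain for the colony-stimulating factor GM-CSF and related cytokines, gave 56.7 and 22.8 against 24.7 and 34.8, with PTX replicate 1 again the highest. In the list of this axis 0 of 5 tested genes passed and all overlapped, with a median of −0.28 (0.30 without PTX replicate 1); Csf2 and Csf3r were under the count needed for a test.

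Macrophage and monocyte genes were highest in PTX replicate 1, and PTX replicate 2 did not stand apart from the PLX+PTX tumours. Of 21 tested members, 14 had their highest level of the 4 libraries in PTX replicate 1, against 28.6% of all tested genes, 1 in PTX replicate 2 (14.5%), 3 in PLX+PTX replicate 1 (36.7%) and 3 in PLX+PTX replicate 2 (20.2%). In 11 of them PTX replicate 1 was the highest of all 12 libraries, against 9.92% of tested genes. The summed level of the 23 list genes on the panel was 5868 and 3979.9 in PTX and 3601 and 4586 in PLX+PTX, and no member was at 0. Within PTX, replicate 1 exceeded replicate 2 in 18 of 21 genes; within PLX+PTX, replicate 2 exceeded replicate 1 in 16. In bulk tissue, fewer macrophages and less RNA per macrophage cannot be told apart.

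Between the groups, 15 of the 21 macrophage and monocyte genes had a log2 fold change below 0 and 6 above, with a median of −0.12. Of all tested genes 46.0% lay below 0. Both PLX+PTX libraries lay below both PTX libraries in 3 of the 21, near the 16.3% of all tested genes. They lay above in 0, against 18.9%, and 0 passed in either direction. Without PTX replicate 1 the median was 0.15 with 6 genes below 0, and without PLX+PTX replicate 1 it was 0.06 with 6 below. It was −0.37 without PTX replicate 2 and −0.41 without PLX+PTX replicate 2, with 17 below in each. On the deposited log2 values the median was −0.29, again with 17 below. The 3 genes without overlap were Ms4a4a, Cd163 and Cd14. Ms4a4a, a surface protein of macrophages, gave 157 and 78.04 in PTX and 54.1 and 76.6 in PLX+PTX (log2 fold change −0.85, SE 0.43). Cd163, the haemoglobin scavenger receptor, gave 50.04 and 29.4 against 24.7 and 23.5, detected in 3 of the 4, and Cd14, the coreceptor for bacterial lipopolysaccharide, 1663 and 1188 against 963 and 851. Without PTX replicate 1 their log2 fold changes were −0.25, −0.29 and −0.39. That sign follows from the lack of overlap by which the 3 were picked, and is no further evidence.

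Among the other macrophage genes PTX replicate 1 was often the high library. The mannose receptor gene Mrc1 gave 182 and 72.9 in PTX and 49.4 and 100.1 in PLX+PTX, and its log2 fold change of −0.77 was 0.04 without PTX replicate 1. Adgre1, which encodes the mouse macrophage antigen F4/80, gave 113 and 58.9 against 57.9 and 89.7, and the lysosomal marker Cd68 291 and 158 against 178 and 254; in both, the PLX+PTX libraries lay between the PTX libraries or within 1 count of the lower. The log2 fold change of Cd68 was −0.06 (95% interval −0.99 to 0.87), and without PTX replicate 1 it was 0.45, with 0.33 for Adgre1. The fractalkine receptor gene Cx3cr1 had its highest level in PLX+PTX replicate 2, with 196 and 156 against 184 and 267 (log2 fold change 0.36, SE 0.41), and that library was the highest of the 12. Itgam, the integrin chain CD11b, gave 56.7 and 35.3 against 45.6 and 64.4 and the monocyte receptor Ccr2 31.7 and 16.9 against 22.8 and 26.1, both with overlap. Arg1, the arginine-degrading enzyme of alternatively activated macrophages, was lowest in PTX replicate 1, with 60.05 and 268 in PTX and 156 and 213 in PLX+PTX.

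Spp1, the gene of the matrix protein osteopontin, which macrophages and tumour cells both make, gave 51567 and 48588 in PTX and 48346 and 36696 in PLX+PTX. Both PLX+PTX libraries lay below both PTX libraries, PLX+PTX replicate 1 by a narrow margin. The log2 fold change was −0.24 with a 95% interval of −1.95 to 1.48.

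**Figure D2:**
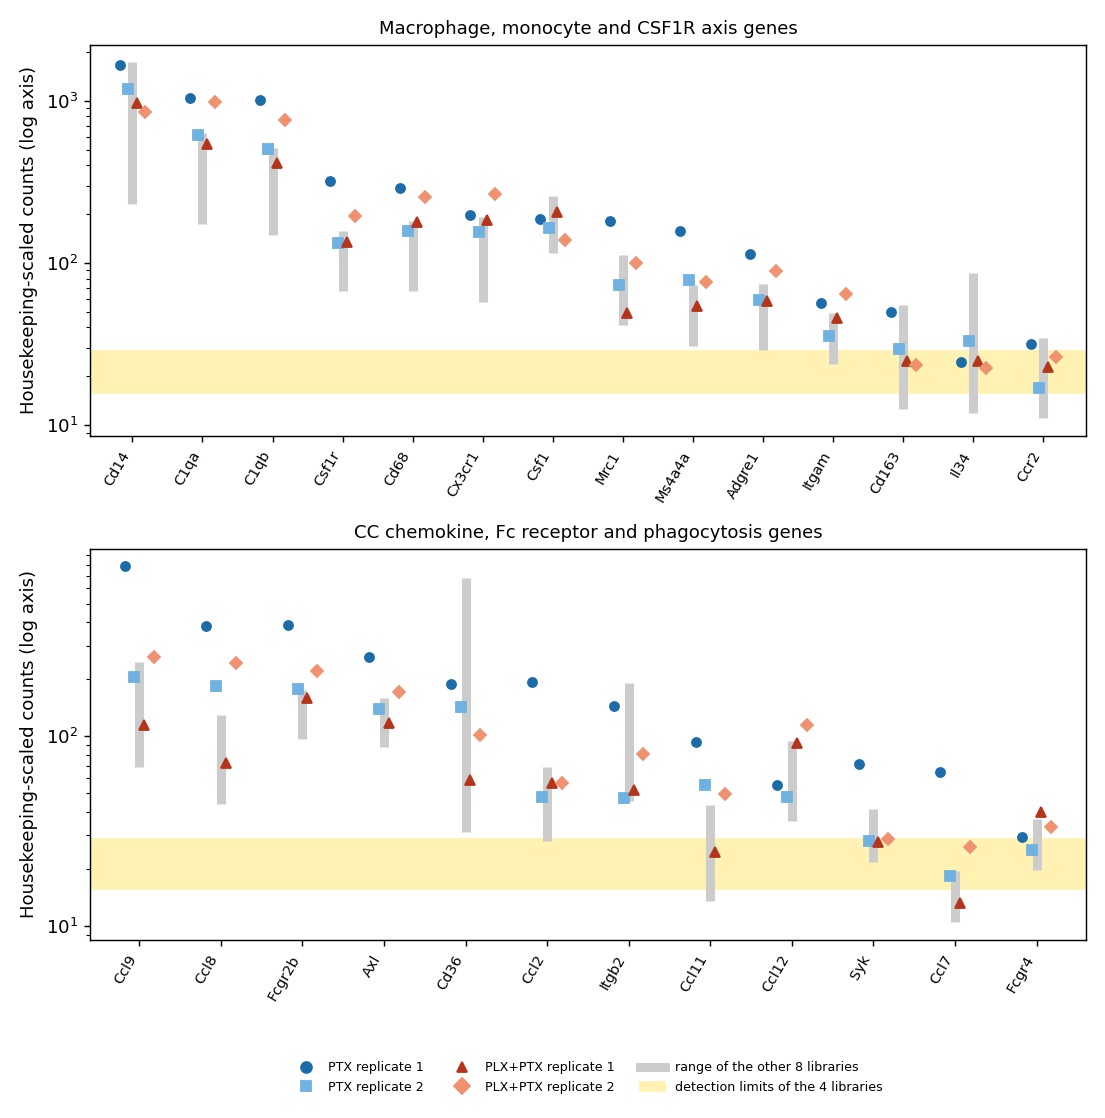
Housekeeping-scaled counts (log axis) of macrophage, monocyte and CSF1R axis genes (top) and of CC chemokine, Fc receptor and phagocytosis genes (bottom). Each point is 1 library, grey bars span the 8 antibody-treated libraries and the yellow band spans the detection limits of the 4 libraries. PTX replicate 1 (dark blue circles) is the highest of the 4 for Csf1r (319.7), Mrc1 (182) and Ccl2 (192), while PTX replicate 2 is the lowest of the 4 for Csf1r (133) and Ccl2 (47.9).

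Chemokine genes of the CC family, which recruit monocytes and other leukocytes, had the lowest list median of the comparison. Of 13 tested members 10 had a log2 fold change below 0, against 46.0% of all tested genes, with a median of −0.54. Both PLX+PTX libraries lay below both PTX libraries in 3 and above in 2, beside 16.3% and 18.9%, and 0 passed. Without PTX replicate 1 the median was −0.19 with 8 genes below 0. Ccl2, the main attractant of monocytes through CCR2, gave 192 and 47.9 in PTX and 56.97 and 56.6 in PLX+PTX; only PTX replicate 1 was high, and the log2 fold change went from −1.09 to 0.25 without it. Ccl7, a relative of CCL2 that also binds CCR2, gave 64.5 and 18.4 against 13.3 and 26.1 (−1.08, or 0.11 without PTX replicate 1). Ccl9, a mouse chemokine that binds CCR1, gave 784 and 206 in PTX and 114 and 260.3 in PLX+PTX (log2 fold change −1.40, SE 0.68), and Ccl8 379 and 184 against 72.2 and 242 (log2 fold change −0.84, SE 0.60). In each of Ccl2, Ccl7, Ccl8 and Ccl9 PTX replicate 1 was the highest of all 12 libraries. That library also had the highest summed macrophage level (5868, against 3601 to 4586 in the other 3) and the most counts, and their part in the chemokine values was not tested.

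Ccl11, the eosinophil attractant eotaxin, gave 93.4 and 55.2 in PTX and 24.7 and 49.6 in PLX+PTX (log2 fold change −0.998, SE 0.55), and both PTX libraries lay above the other 10 of the series. Ccl12 and Ccl5 were the 2 CC chemokine genes with both PLX+PTX libraries above both PTX libraries. Ccl5, made largely by T and NK cells, gave 38.9 and 46.4 in PTX and 75.01 and 67.9 in PLX+PTX (log2 fold change 0.74, SE 0.52). Among CXC chemokines, which include attractants of neutrophils and lymphocytes, Cxcl11, described above, lay above without overlap and 2 of 10 below: Cxcl1, a neutrophil attractant, with 88.4 and 62.6 against 52.2 and 44.4, and Cxcl14, made by epithelium and stroma, with 200.2 and 205 against 88.3 and 171. In both genes the PTX libraries lay above the other 10 libraries. The list had 6 of 10 genes below 0, a median of −0.11 (0.07 without PTX replicate 1) and 0 past the test.

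Of the Fc gamma receptor and phagocytosis genes 7 of 11, and of the complement genes 3 of 5, were highest in PTX replicate 1, against 28.6% of all tested genes; 2 complement genes were highest in PTX replicate 2. In the Fc gamma receptor and phagocytosis list 8 of 11 genes lay below 0 (median −0.34), and in the complement list 5 of 5 (median −0.36), against 46.0% of all tested genes. Of both lists 0 passed. Without PTX replicate 1 these medians were 0.04 and 0.22, and without PLX+PTX replicate 2 they were −0.77 and −0.87. The inhibitory Fc receptor gene Fcgr2b gave 384 and 177 in PTX and 159 and 221 in PLX+PTX, and C5ar1, the receptor for the complement fragment C5a, 122 and 34.6 against 25.6 and 62.7. The C1q chain genes, a product of tissue macrophages, gave 1037 and 619 against 538 and 988 for C1qa and 1011 and 507 against 416 and 766 for C1qb, with PTX replicate 1 and PLX+PTX replicate 2 the high pair in both. Axl, a receptor for uptake of dying cells, gave 261 and 139.9 against 118 and 171, and Syk, a kinase downstream of Fc receptors, 71.2 and 27.98 against 27.5 and 28.7. Cd36, a scavenger receptor for lipids that endothelium and fat cells also carry, had no overlap, with 188 and 143 against 58.9 and 101 (log2 fold change −1.05, SE 0.95). The activating Fc receptor gene Fcgr4 and 1 more lay above in both PLX+PTX libraries; Fcgr4 gave 29.5 and 25.03 against 39.9 and 33.1, and the other, Fcgr1, was named after its values were seen, with 60.05 and 45.6 against 62.7 and 75.7.

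Neutrophil genes were scarce. Of 10 on the panel, 6 were detected in none of the 4 libraries and 3 were tested, with 0 past the test. S100a8, the partner of S100a9, gave 864 and 607 in PTX and 546 and 677 in PLX+PTX, with overlap (log2 fold change −0.27, SE 0.90); unlike S100a9 it was detected in all 4. Mast cell genes were few as well: Cpa3, a mast cell protease, gave 26.1 and 27.98 against 9.49 and 32.2, and Kit, which mast cells share with mammary epithelium, 626 and 771 against 782 and 546. Of 4 tested genes of that list 0 lay above and 0 below without overlap, and 0 passed.

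None of 27 tested type I interferon genes passed, while 22 had a log2 fold change above 0, against 54.0% of all tested genes. The highest level of the 4 was that of 1 tumour, PLX+PTX replicate 1, in 21, against 36.7%. Cells that sense type I interferon switch on these antiviral genes through a transcription complex that contains IRF9 and binds a DNA element built around paired GAAA units. To show what the genes furthest apart carry at their starts, the reference promoters of Ifit3, Irf7, Ifit1, Isg15 and Oas1a, in the order of their log2 fold changes, are printed here from RefSeq (build GRCm38.p6), running from 250 bases before to 50 after the annotated start, in the direction of transcription. Capitals mark matches to a pair of GAAA units with 2 free bases between them, searched on both strands; matches on the opposite strand read as paired TTTC, and overlapping matches run together.
Ifit3, chr19:34583279-34583578, plus strand: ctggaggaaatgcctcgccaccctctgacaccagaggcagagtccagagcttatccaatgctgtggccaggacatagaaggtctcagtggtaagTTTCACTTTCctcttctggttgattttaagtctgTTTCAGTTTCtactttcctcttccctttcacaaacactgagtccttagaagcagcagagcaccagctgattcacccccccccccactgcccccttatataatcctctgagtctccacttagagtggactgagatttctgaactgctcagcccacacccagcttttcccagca
Irf7, chr7:141266375-141266674, minus strand: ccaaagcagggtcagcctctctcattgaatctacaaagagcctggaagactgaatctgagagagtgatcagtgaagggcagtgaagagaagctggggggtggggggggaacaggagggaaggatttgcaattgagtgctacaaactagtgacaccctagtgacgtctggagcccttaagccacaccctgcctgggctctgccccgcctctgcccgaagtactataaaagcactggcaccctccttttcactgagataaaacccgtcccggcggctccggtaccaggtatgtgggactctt
Ifit1, chr19:34640639-34640938, plus strand: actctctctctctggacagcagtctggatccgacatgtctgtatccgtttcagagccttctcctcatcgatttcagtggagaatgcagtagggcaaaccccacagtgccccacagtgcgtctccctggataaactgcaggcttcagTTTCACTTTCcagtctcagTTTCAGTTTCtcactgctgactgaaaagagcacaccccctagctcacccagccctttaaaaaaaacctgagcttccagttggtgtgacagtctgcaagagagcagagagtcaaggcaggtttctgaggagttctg
Isg15, chr4:156200769-156201068, minus strand: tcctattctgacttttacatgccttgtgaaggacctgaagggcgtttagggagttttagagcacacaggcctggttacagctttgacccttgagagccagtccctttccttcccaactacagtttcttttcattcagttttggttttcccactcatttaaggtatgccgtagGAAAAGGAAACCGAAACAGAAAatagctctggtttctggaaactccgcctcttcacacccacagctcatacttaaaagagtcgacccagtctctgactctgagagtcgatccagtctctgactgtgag
Oas1a, chr5:120907476-120907775, minus strand: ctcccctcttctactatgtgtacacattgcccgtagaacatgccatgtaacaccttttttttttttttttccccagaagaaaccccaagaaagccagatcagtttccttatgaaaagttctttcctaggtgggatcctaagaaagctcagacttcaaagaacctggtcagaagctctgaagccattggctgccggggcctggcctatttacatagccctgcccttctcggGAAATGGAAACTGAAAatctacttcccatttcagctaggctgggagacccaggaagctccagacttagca
Ifit3, Ifit1 and Oas1a hold 2 matches each, Isg15 holds 3 and Irf7 holds 0. The motif was present in 3.44% of the 32851 promoters of the table; counted by gene, 3.99% of 27025 symbols held it in at least 1 promoter. Of the 27 tested type I interferon genes 22 had a promoter there. Of these, 12 held a match in at least 1 promoter and 10, Irf7 among them, held none. The list was drawn up from genes of the interferon response, so that share is no result of the comparison. Whether the fold changes go with a match was not tested. A match describes letters in this window and not the binding of a factor.

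Ifit3, an antiviral protein that binds viral RNA complexes, gave 60.6 and 61.8 in PTX and 326 and 97.5 in PLX+PTX. Both PLX+PTX libraries lay above both PTX libraries, and PLX+PTX replicate 1 was well above replicate 2. The log2 fold change was 1.79 (SE 0.69, unadjusted p = 0.0234 by edgeR) and 0.67 without PLX+PTX replicate 1. Irf7, which amplifies the interferon response, gave 289 and 207 in PTX and 1276 and 414 in PLX+PTX (log2 fold change 1.77, SE 0.82; 0.74 without PLX+PTX replicate 1). The ubiquitin-like protein gene Isg15 gave 359 and 259.9 in PTX and 1136 and 441 in PLX+PTX (1.35, or 0.51 without PLX+PTX replicate 1). Ifit1, an antiviral protein that binds viral RNA, gave 99.5 and 87.6 against 378 and 138, Ifit2 74.5 and 48.6 against 181 and 84.4, and Oas1a, an enzyme that activates RNA decay, 239 and 184 against 681 and 271. In all 6 genes PLX+PTX replicate 2 lay above both PTX libraries but inside the range of the 8 antibody-treated libraries, while replicate 1 lay above that whole range.

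Across the type I interferon list the share above 0 (22 of 27) stood beside 54.0% of all tested genes, and the median was 0.42. Both PLX+PTX libraries lay above both PTX libraries in 12, against 18.9% of all tested genes, and below in 1, against 16.3%, and 0 passed in either direction. PLX+PTX replicate 1 was the highest of all 12 libraries in 13, against 11.4% of tested genes. Without it the median was 0.09 with 14 genes above 0; without PLX+PTX replicate 2 it was 0.72. The lowest was Tlr7, the endosomal RNA sensor of plasmacytoid dendritic cells and macrophages, with 67.8 and 36.1 against 38.9 and 41.8, which again had PTX replicate 1 as the high library. Of the nucleic acid sensors that feed the response, Ifih1, which recognises long double-stranded RNA, gave 402 and 439.5 against 750.1 and 447. Without overlap 4 of 11 genes in that list lay above and 1 below, beside 18.9% and 16.3% of all tested genes. Of these sensors 0 passed, and the median of 0.12 was −0.06 without PLX+PTX replicate 1.

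Genes of the interferon-gamma response are partly shared with the type I response. Gbp2, a guanylate-binding protein that attacks intracellular pathogens, gave 249.6 and 249.6 in PTX and 436 and 289 in PLX+PTX, and Socs1, a feedback inhibitor of cytokine signalling, 16.7 and 19.1 against 30.4 and 28.7. Socs1 was near background and not detected in PTX replicate 2, whose scaled limit was 24.1. In this list 14 of 19 genes lay above 0 (median 0.12), against 54.0% of all tested genes. Without overlap 7 lay above and 2 below, beside 18.9% and 16.3%, and 0 passed the test. PLX+PTX replicate 1 was the highest of the 4 in 13, against 36.7% of all tested genes. The median was 0.13 without that library, 0.23 without PTX replicate 1, 0.37 without PTX replicate 2 and 0.48 without PLX+PTX replicate 2. The cytokine gene itself was at background: Ifng had 5 and 7 raw counts in PTX and 5 and 5 in PLX+PTX, and its target Cxcl9 had 11 and 14 against 10 and 7, so neither was detected or tested.

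**Figure D3:**
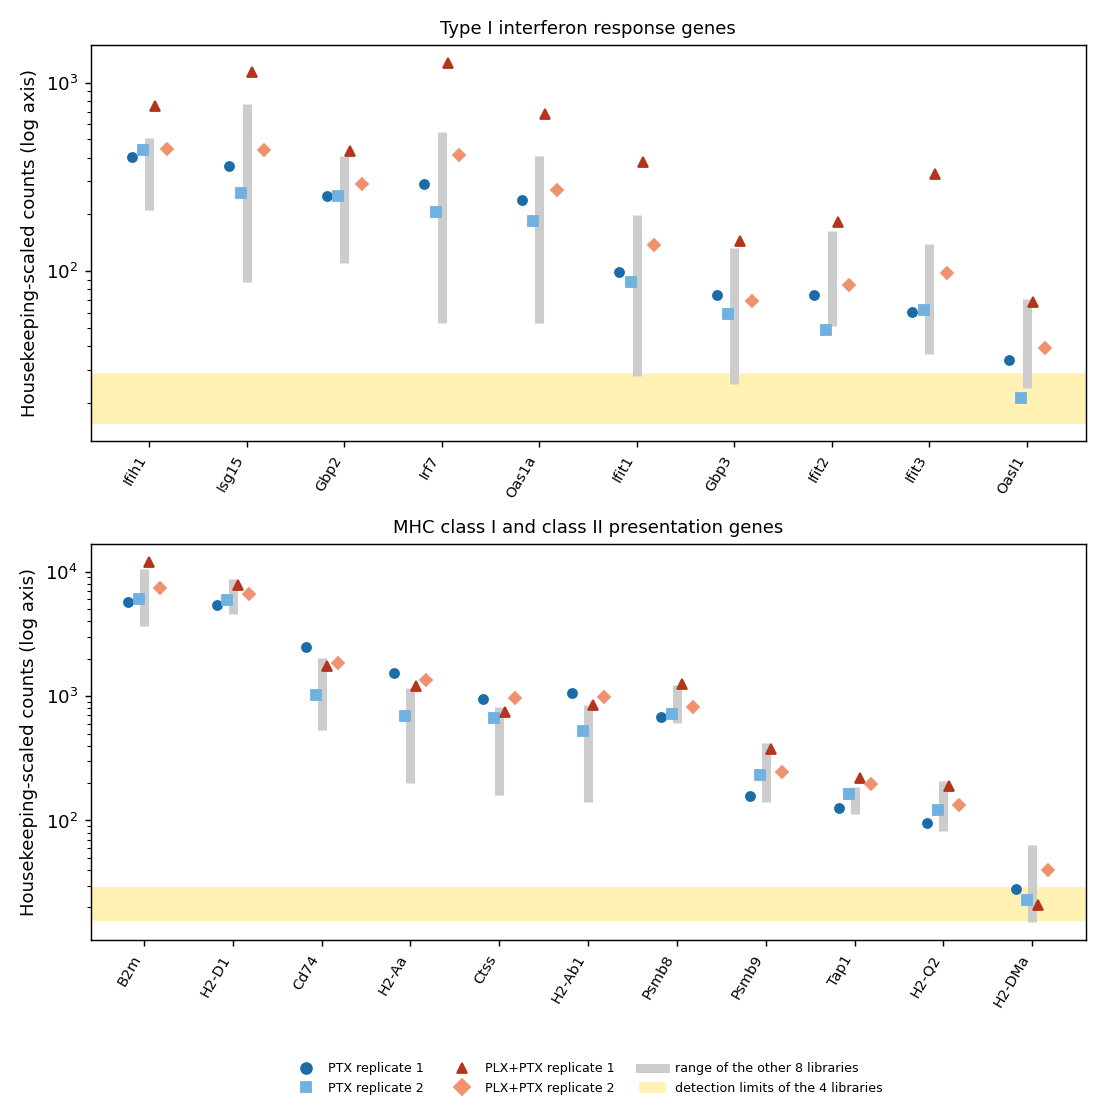
Housekeeping-scaled counts (log axis) of type I interferon genes (top) and MHC class I and II genes (bottom), with 1 point per library, grey bars for the 8 antibody-treated libraries and a yellow band for the detection limits. PLX+PTX replicate 1 (red triangles) stands highest for Irf7 (1276), Ifit3 (326) and B2m (11940.4), while PTX replicate 2 (light blue squares) is the lowest of the 4 for Cd74 (1018).

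Peptide presentation by MHC class I, through which CD8 T cells see tumour cells, had 12 of 13 genes above 0 (median 0.30), against 54.0% of all tested genes. Both PLX+PTX libraries lay above both PTX libraries in 8 and below in 0, beside 18.9% and 16.3% of all tested genes, and 0 passed. The light chain gene B2m gave 5717 and 6046 in PTX and 11940.4 and 7355 in PLX+PTX (log2 fold change 0.71, SE 0.44). The immunoproteasome subunit genes Psmb8 and Psmb9 gave 681 and 722 against 1258 and 813 and 158 and 233 against 372 and 245, and the peptide transporter gene Tap1 126 and 163 against 220.3 and 198 (log2 fold change 0.54, SE 0.28). The heavy chain genes H2-D1 and H2-Q2 gave 5405 and 5943 against 7827 and 6578 and 95.6 and 121 against 191 and 132; they belong to a family of near-identical genes, so how far each probe reads its neighbours is uncertain. PLX+PTX replicate 1 was the highest of the 4 in 11 of 13 genes, against 36.7% of all tested genes. Without it the median was 0.20, with 9 genes above 0 (without PTX replicate 2 0.61 and without PLX+PTX replicate 2 0.48), and Tap1 had a log2 fold change of 0.46.

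MHC class II genes, used by macrophages, dendritic cells and B cells, were highest in PTX replicate 1 in 3 of 6 tested cases, against 28.6% of all tested genes, in PLX+PTX replicate 1 in 1 and in PLX+PTX replicate 2 in 2. Those highest in PTX replicate 1 were Cd74, H2-Aa and H2-Ab1. The invariant chain gene Cd74 gave 2462 and 1018 in PTX and 1745 and 1853 in PLX+PTX, H2-Aa 1532 and 689.8 against 1207 and 1352 and H2-Ab1 1059 and 524 against 852 and 981. PTX replicate 2 was the lowest of the 4 in each, with the PLX+PTX libraries between the PTX libraries. All 6 tested members had a log2 fold change above 0 (median 0.21), against 54.0% of all tested genes. Of these 0 passed, 1 lay above without overlap and 0 below. The direction depended on the library and on the values used: the median was 0.76 without PTX replicate 1, −0.17 without PTX replicate 2 and −0.20 on the deposited log2 values, where 2 of 6 lay above 0. The 95% interval of Cd74 was −1.23 to 1.33.

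Genes of T cells lay mostly near or under the detection limit. In the T cell list 12 of 20 panel genes were detected in none of the 4 libraries and 0 in all, 10 were tested, 2 lay above and 0 below without overlap, and 0 passed (median −0.03). Cd8a had 17 and 9 raw counts in PTX and 9 and 10 in PLX+PTX, the PD-1 gene Pdcd1 12 and 13 against 6 and 10, and the regulatory T cell factor gene Foxp3 12 and 10 against 7 and 6; these 3 were detected in no library. Cd4 gave 15.01 and 25.03 against 15.2 and 21.8 scaled counts and Cd3g, a chain of the T cell receptor complex, 16.7 and 25.03 against 28.5 and 14.8, each detected in 2 of the 4. The scaled negative controls lay at 10.7 to 16.5, so that a difference in T cell number was not detectable from these genes at this depth.

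Cytotoxic genes of CD8 T and NK cells lay above 0 in 9 of 9 tested cases, against 54.0% of all tested genes, with a median of 0.43. With PTX replicate 1 left out, 7 of 9 lay above 0 (median 0.41). Of the 18 on the panel 11 were detected in none of the 4 libraries and 1, Ccl5, in all. Of the 9 tested, 4 lay above without overlap, against 18.9% of all tested genes, and 0 passed. The granule protease gene Gzmb gave 22.2 and 17.7 in PTX and 21.8 and 32.2 in PLX+PTX, with overlap (log2 fold change 0.43, SE 0.35, 95% interval −0.32 to 1.18). Tbx21, the transcription factor T-bet of type 1 lymphocytes, gave 17.2 and 19.1 against 23.7 and 19.2, and the inhibitory receptor gene Lag3 22.2 and 17.7 against 21.8 and 25.2. Itgae, the integrin chain CD103 of resident memory T cells, gave 8.34 and 27.2 against 22.8 and 20.02, with PTX replicate 1 the lowest. Subtracting the negative controls before scaling left 8 of 9 above 0, and the scaled controls themselves were lowest in PTX replicate 1; their part in these values was not tested.

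Few lymphoid genes of other kinds could be read. Of the dendritic cell list 6 genes were tested with a median of 0.01; Batf3, needed for cross-presenting dendritic cells, gave 19.5 and 20.6 against 17.1 and 23.5, and Itgax, the integrin chain CD11c, 39.5 and 22.1 against 28.5 and 26.1, with overlap in all 6. Of B cell genes 8 of 10 were detected in none of the 4 libraries; Ms4a1, which encodes CD20, gave 11.7 and 24.3 against 25.6 and 22.6. Among NK cell genes 1 of 5 lay above and 1 below without overlap. The regulatory T cell list had 3 tested genes, of which Tnfrsf18, the costimulatory receptor GITR, gave 34.5 and 44.2 in PTX and 69.3 and 52.2 in PLX+PTX (log2 fold change 0.63, SE 0.33) and Ikzf2, the transcription factor Helios, 82.3 and 66.99 against 65.5 and 43.5. None of the dendritic, B, NK or regulatory T cell genes passed.

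Checkpoint genes showed no common direction, with 11 of 24 tested genes above 0 (median −0.03). Without overlap 6 lay above and 3 below, beside 18.9% and 16.3% of all tested genes, and 0 passed the test. Cd274, the gene of PD-L1, gave 20.6 and 22.8 in PTX and 27.5 and 14.8 in PLX+PTX, detected in PTX replicate 1 only (log2 fold change −0.04, SE 0.54, 95% interval −1.22 to 1.14). Vsir, the gene of the inhibitory ligand VISTA, gave 256 and 309 in PTX and 614 and 341 in PLX+PTX (log2 fold change 0.76, SE 0.53; 0.27 without PLX+PTX replicate 1), and Lgals9, a ligand of TIM-3, 684 and 551 against 1176 and 671. Among the genes below without overlap were Cd276, which encodes B7-H3, with 159 and 133 against 102 and 122, and the ICOS ligand gene Icosl with 32.2 and 30.9 against 23.7 and 22.6.

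Medians of the lists are set side by side in the plot of list medians. The median of all tested genes was 0.03. The lists of type I interferon, CD8 and cytotoxic, and MHC class I genes had medians above it whether PTX replicate 1 or PLX+PTX replicate 1 was left out, at 0.55 and 0.09, 0.41 and 0.67, and 0.28 and 0.20. Of the other lists in the plot, those of MHC class II, proliferation, DNA repair and apoptosis genes did so as well. Their medians were 0.76 and 0.28, 0.11 and 0.32, 0.07 and 0.24, and 0.06 and 0.05. The CC chemokine, matrix and PI3K, AKT, mTOR and MAPK lists stayed below 0 in both cases. The macrophage, Fc receptor, complement, hypoxia, T cell and mammary epithelial lists changed sign in at least 1 of the 2.

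**Figure D4:**
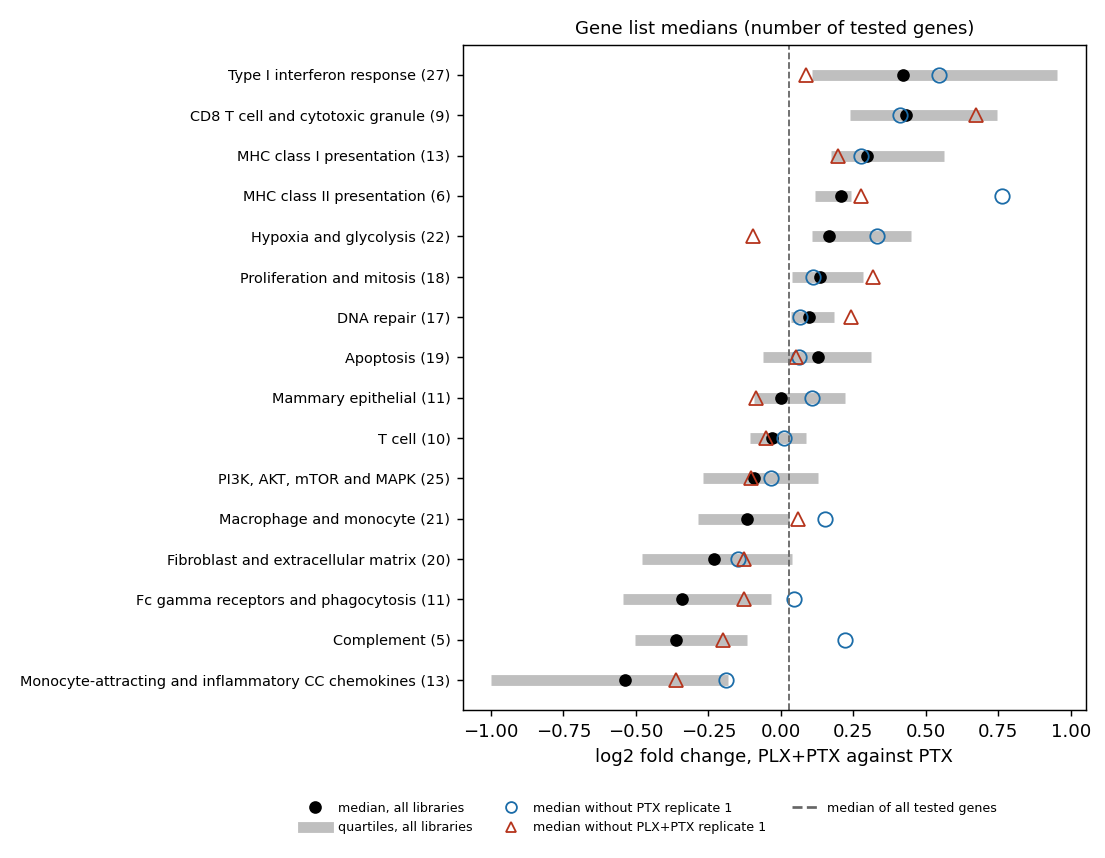
Median log2 fold change of PLX+PTX against PTX for the main gene lists (number of tested genes in brackets), with quartiles as grey bars. Open blue circles leave out PTX replicate 1 and open red triangles PLX+PTX replicate 1; the dashed line is the median of all tested genes (0.03). The macrophage and monocyte median moves from −0.12 to 0.15 without PTX replicate 1, and the hypoxia and glycolysis median from 0.17 to −0.10 without PLX+PTX replicate 1.

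Several hypoxia-induced genes were high in PLX+PTX replicate 1 alone among the 4 tumours. Adm, the vasodilator peptide adrenomedullin, which low oxygen induces, gave 41.1 and 41.2 in PTX and 272 and 38.3 in PLX+PTX, and its log2 fold change of 1.91 (SE 1.01) was −0.10 without that library. Vegfa, the main angiogenic growth factor, gave 192 and 144 in PTX and 592 and 104 in PLX+PTX; PLX+PTX replicate 2 was the lowest of the 4, and the log2 fold change went from 1.04 to −0.69. Bnip3, a mitophagy receptor, gave 151 and 137 against 431 and 149, and Pdk1, a kinase that turns pyruvate away from the mitochondria, 326 and 326 against 628 and 306. In Adm, Vegfa and Pdk1 this 1 library was also the highest of all 12.

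In the hypoxia and glycolysis list 17 of 22 genes lay above 0 (median 0.17), against 54.0% of all tested genes. Without overlap 6 lay above and 2 below, beside 18.9% and 16.3%, and 0 passed. With PLX+PTX replicate 1 left out the median was −0.10 and 9 lay above 0. The glycolytic enzyme gene Aldoa gave 10545 and 10427 in PTX and 16189 and 13449.5 in PLX+PTX (log2 fold change 0.50, SE 0.63), with no overlap. Angptl4, which hypoxia and fatty acids both induce and which inhibits lipoprotein lipase, lay the other way with 404 and 255 in PTX and 137 and 197 in PLX+PTX (log2 fold change −0.98, SE 0.47). PLX+PTX replicate 1 was the highest of the 4 in 15 of the 22 hypoxia and glycolysis genes and in 21 of the 27 interferon genes. Of all tested genes 36.7% had their highest level there. Whether the 2 gene groups are linked was not tested.

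Most genes of dividing cells were highest in PLX+PTX replicate 2. Of 18 tested members 14 had their highest level of the 4 there, against 20.2% of all tested genes, and 1 their highest of the 12, against 4.23%. Of the list, 15 lay above 0 (median 0.14), against 54.0% of all tested genes. Without overlap 5 lay above (18.9% of all tested genes) and 1 below (16.3%), and 0 passed. Mki67, the proliferation marker Ki-67, gave 1901 and 1885 in PTX and 1821 and 2111 in PLX+PTX (log2 fold change 0.05, SE 0.31, 95% interval −0.62 to 0.73). Rrm2, which makes deoxynucleotides for DNA synthesis, gave 500.4 and 618 in PTX and 439.6 and 998 in PLX+PTX; its log2 fold change of 0.36 was −0.35 without PLX+PTX replicate 2. Ube2t, a ubiquitin-conjugating enzyme of the Fanconi anaemia pathway, gave 78.4 and 97.2 against 101 and 138, and both PTX libraries lay below the other 10 of the series. Cdc20, an activator of the anaphase-promoting complex, gave 244 and 249 against 264 and 352, and Birc5, the gene of the mitotic protein survivin, 723 and 788 against 860.2 and 985. Without PLX+PTX replicate 2 the list median was −0.06, with 8 genes above 0, and without PLX+PTX replicate 1 it was 0.32. On the deposited log2 values 8 of 18 lay above 0 and the median was −0.01.

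DNA repair genes lay above 0 in 15 of 17 cases (median 0.10), against 54.0% of all tested genes. Without overlap 5 lay above and 1 below, beside 18.9% and 16.3%, and 0 passed the test. Without PLX+PTX replicate 2 the median was 0.0008 with 9 above 0, and without PLX+PTX replicate 1 it was 0.24. Inhibitors of the cell cycle were split within the PLX+PTX group: Cdkn2a, the gene of p16 and p19, gave 17.8 and 37.5 in PTX and 96.8 and 25.2 in PLX+PTX and Cdkn2b, the gene of p15, 36.7 and 67.7 against 113 and 28.7. Both were highest in PLX+PTX replicate 1, and without it their log2 fold changes of 1.15 and 0.44 were −0.12 and −0.85. Cdkn1c, the gene of p57, was instead highest in PLX+PTX replicate 2, with 50.04 and 83.2 against 77.9 and 129.7. The pro-apoptotic gene Bax gave 396 and 467 against 539 and 546. In the apoptosis list 6 of 19 lay above and 0 below without overlap, beside 18.9% and 16.3% of all tested genes, and 0 passed. The list median was 0.13. With each of the 4 libraries left out in turn it ran from 0.05 to 0.16, and on the deposited log2 values it was −0.02.

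**Figure D5:**
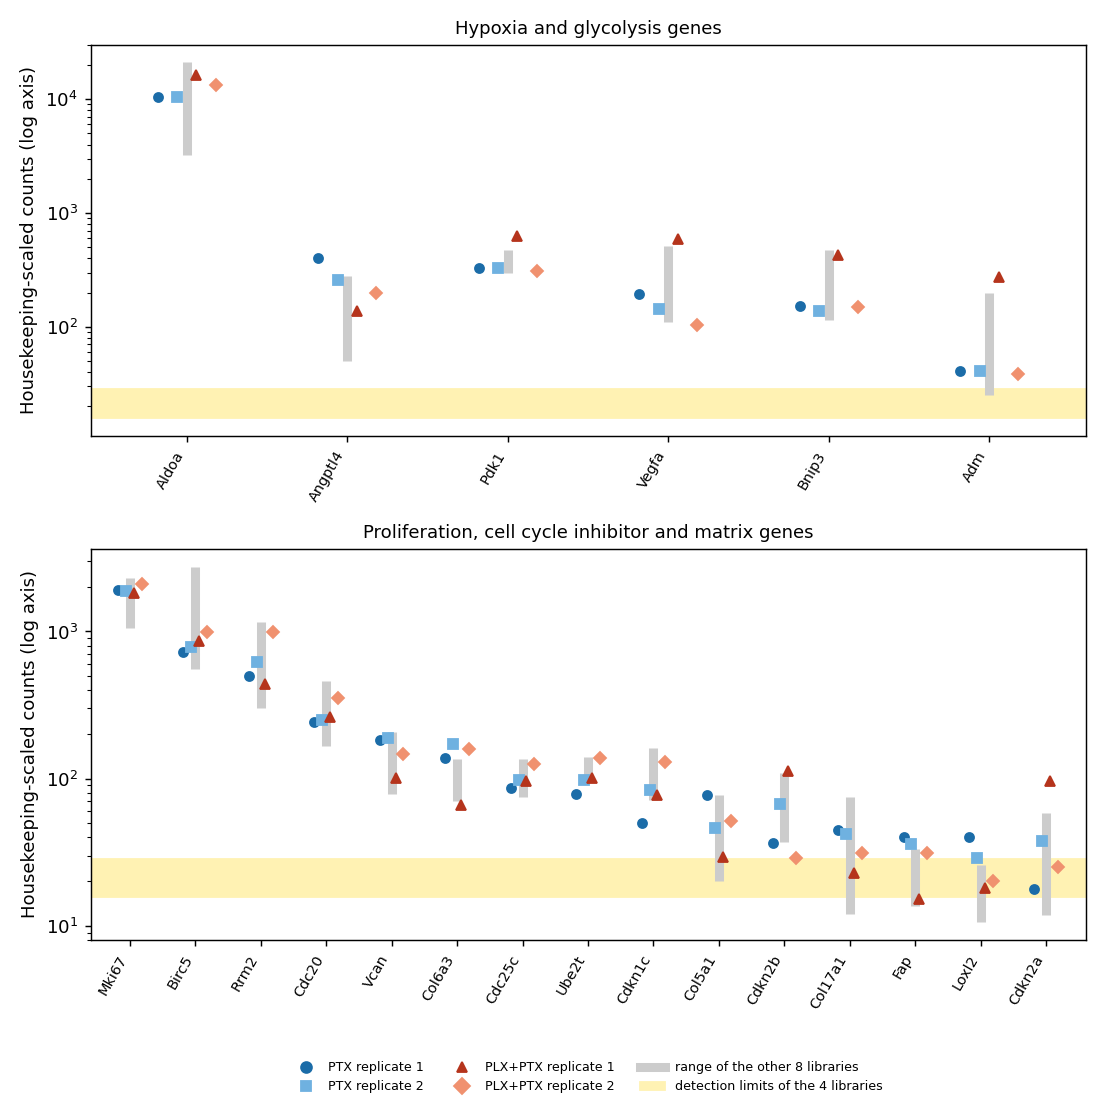
Housekeeping-scaled counts (log axis) of hypoxia and glycolysis genes (top) and of proliferation, cell cycle inhibitor and matrix genes (bottom), with 1 point per library, grey bars for the 8 antibody-treated libraries and a yellow band for the detection limits. PLX+PTX replicate 1 stands apart in Adm (272) and Vegfa (592), and PLX+PTX replicate 2 is the highest of the 4 in Rrm2 (998).

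Fibroblast and matrix genes lay below 0 in 14 of 20 tested cases (median −0.23), against 46.0% of all tested genes. Both PLX+PTX libraries lay below both PTX libraries in 6, against 16.3% of all tested genes, and above in 0, against 18.9%, and 0 passed. Besides Loxl2, these were Fap, the fibroblast activation protein, with 40.03 and 36.1 against 15.2 and 31.3, the hemidesmosomal collagen gene Col17a1 with 45.03 and 41.96 against 22.8 and 31.3, and the proteoglycan gene Vcan with 182 and 188 against 101 and 147; the other 2 were the laminin chain gene Lamb3, with 202 and 194 against 163 and 162, and Thbs1, which falls outside the rule for named genes and is named after its values were seen. The collagen gene Col6a3 gave 138 and 171 against 66.5 and 160.2, low in PLX+PTX replicate 1 alone. Comp, a cartilage matrix protein outside the list, lay above with 18.3 and 13.99 against 46.5 and 27.9, and was not detected in PTX replicate 2. The list median was −0.15 without PTX replicate 1, −0.13 without PLX+PTX replicate 1 and −0.40 on the deposited log2 values.

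Vessel genes had 11 of 16 above 0 (median 0.17), against 54.0% of all tested genes. Without overlap 4 lay above and 1 below, beside 18.9% and 16.3%, and 0 passed the test. Kdr, the VEGF receptor of endothelium, gave 48.4 and 51.5 in PTX and 93.05 and 61.8 in PLX+PTX (log2 fold change 0.63, SE 0.52), and Selp, the leukocyte adhesion molecule P-selectin, 32.2 and 24.3 against 16.1 and 21.8. Thbd, the anticoagulant receptor thrombomodulin, which is not in the list, gave 45.03 and 50.1 against 26.6 and 27.9, with no overlap. In the TGF-beta list 2 of 9 lay above and 3 below without overlap, beside 18.9% and 16.3% of all tested genes. Tgfb1 gave 224 and 257 against 235 and 293 with overlap, and the receptor gene Tgfbr1 539.9 and 449.8 against 435 and 410.0.

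In the list of amino acid metabolism 2 of 11 tested genes lay below without overlap and 1 above, and 0 passed (median −0.09). Glul, which makes glutamine from glutamate and ammonia, gave 733 and 374 in PTX and 252 and 311 in PLX+PTX (log2 fold change −0.98, SE 0.58; −0.41 without PTX replicate 1), and was among those below. The amino acid transporter gene Slc7a5 gave 504 and 361 against 294 and 379.6, with overlap.

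In the PI3K, AKT, mTOR and MAPK list 9 of 25 lay below in both PLX+PTX libraries, against 16.3% of all tested genes, and 2 above, against 18.9%. The median was −0.09 (−0.18 to −0.03 with each of the 4 libraries left out in turn), and 0 passed. The immediate early gene Egr1 gave 779 and 709 in PTX and 685 and 374 in PLX+PTX (log2 fold change −0.49, SE 0.38), and Dusp1, a phosphatase that ends MAPK signals, 599 and 429.9 against 390.2 and 341. Pik3r1, the regulatory subunit of PI3K, gave 4109 and 3650.1 against 3203 and 2484, and Pdgfb, a growth factor for pericytes, 97.3 and 75.1 against 54.1 and 63.6. Egf, the epidermal growth factor gene, gave 41.7 and 58.9 against 57.9 and 114, high in PLX+PTX replicate 2 alone. Of the NF-kappaB genes, Nfkbia, its inhibitor and target, gave 1259.8 and 890.1 against 764 and 851. Traf1, an adapter of TNF receptors, gave 54.5 and 107 against 171 and 109. Without overlap 2 of 15 NF-kappaB genes lay above and 3 below, beside 18.9% and 16.3% of all tested genes, and 0 passed.

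Epithelial genes showed no common direction. In the mammary epithelial list 9 of 11 genes were detected in all 4 libraries, the median was 0.0001, 2 lay above and 2 below without overlap, and 0 passed. The luminal transcription factor gene Gata3 gave 1958 and 2092 against 1755 and 1911, and the prolactin receptor gene Prlr 509 and 716 against 746 and 799. Jup, the junction protein plakoglobin, was detected in the PTX libraries only, with 32.8 and 29.4 against 20.9 and 14.8. In the Wnt and Notch list 2 of 23 lay above and 2 below, with 0 past the test; the ligand gene Wnt5b gave 415 and 501 against 748 and 557, and Dll1, a Notch ligand, 618 and 582 against 1140.3 and 387. Of the interleukin and cytokine genes 2 of 20 lay above and 2 below, among them Il6ra, the interleukin-6 receptor, with 101 and 86.9 against 62.7 and 76.6.

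The 8 antibody-treated tumours had also been given PLX and PTX, so the PTX libraries can be set beside all 10 tumours that received the inhibitor; these orders use the same 2 PTX libraries as the comparison above and are no independent evidence of it. Both PTX libraries lay above all 10 others in 14 genes (2.28%) and below all 10 in 3 (0.488%). Among the 14 were Ms4a4a, Ccl11, Cxcl1, Cxcl14, Loxl2, Fap, Egr1, Gata3, Tgfbr1 and Pla1a, a phospholipase. Pla1a gave 39.5 and 50.8 in PTX and 15.2 and 38.3 in PLX+PTX, and the highest of the 8 antibody-treated libraries had 39.3. The scaled detection limits of those 8 ran from 13.3 to 65.5. Loxl2, Fap and Pla1a, at most 26.0, 33.4 and 39.3 in the 10 others, lay inside that span, so their order is partly one of background. Ms4a4a was the 1 macrophage gene of the 21 with this order: its lower PTX library had 78.04 and the highest of the 10 others 76.6. Csf1r was not among them, because PTX replicate 2 had 133 and the 10 others ran from 66.9 to 195.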

How the data were processed

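RNA from MMTV-PyMT mammary tumours was copied into cDNA, amplified in a multiplex target enrichment and counted with the nCounter Mouse PanCancer IO360 panel, per the labels' protocols and the series text. The raw values are whole-number counts for 12 libraries, per the file headers, with 750 endogenous, 20 housekeeping, 8 negative-control and 6 positive-control probes. The authors also deposited log2 values, made in a way the labels leave out (DESeq2 and limma appear in the submitters' processing notes, with no role). They are no rescaling of the counts by 1 factor per library, since they depart from one by gene and library, and served as an alternative only.

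Counts were scaled on the geometric mean of the 20 housekeeping probes. Genes with 20 or more raw counts in at least 2 libraries (615) entered 1 edgeR 4.0.16 quasi-likelihood fit of 5 group means over 12 libraries (R 4.3.3; 7 residual degrees of freedom before moderation), with Benjamini-Hochberg adjustment at 0.05. DESeq2 1.42.0 and limma 3.58.1 were alternatives. The procedure was tested on simulated counts. Amplified barcodes are not independent molecules, so counting error understates the error of a library.

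The gene lists, the comparison and the rule for named genes were chosen with earlier results of these data known. Named were the 12 genes of smallest p, the 10 largest differences each way among detected genes whose groups did not overlap, up to 6 members of each list with the largest differences, and 24 fixed genes, of which Col1a1 is not among the probes used here. Replicates were numbered in order of deposition. All 750 symbols were found in RefSeq's table for GRCm38.p6, 744 under the same symbol; 5 promoters were printed from it. Some genes are not reported here.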

Additional observations from a re-analysis of the deposited data

How the results depend on the processing

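The count of genes past the threshold was 0 in all 24 alternatives: other scalings (TMM, total endogenous count, 75th percentile), DESeq2 with its own or with housekeeping size factors, limma-voom, limma on the deposited log2 values, no filter, only genes detected in all 4 libraries, subtraction of the negative controls, the 4 libraries alone, and the fits without the 3 libraries of low signal or without 1 library each. The smallest adjusted p over these was 0.158, for S100a9 without PTX replicate 2. The 12 genes at an unadjusted p under 0.05 became 28 on the deposited log2 values, 25 with the 4 libraries alone, 22 without the 3 libraries of low signal and 4 among genes detected in all 4, and 4 to 26 when 1 library was left out (4 without PTX replicate 1, 5 without PLX+PTX replicate 1, 24 without PTX replicate 2 and 26 without PLX+PTX replicate 2). The median of all tested genes ran from −0.05 without PLX+PTX replicate 1 to 0.13 after subtraction of the negative controls. Of 4408 values of named genes under an alternative 158 had the opposite sign. Many of the 4408 come from fits without an antibody-treated library, whose list medians stayed close to the main fit. Counted by gene, 74 of the 186 tested named genes had the opposite sign under at least 1 alternative. Among the 95 whose log2 fold change exceeded its standard error there were 19. In the genes where the value exceeded its standard error in either fit, the sign turned as follows, with the range over the fits that leave out 1 library in brackets where that was the setting: without PTX replicate 1, Csf1r (−0.96 to 0.31), Mrc1 (−1.37 to 0.038), Syk (−1.33 to 0.0083), Fcgr2b (−1.01 to 0.098), Itgb2 (−1.11 to 0.50), Axl (−0.85 to 0.044), C5ar1 (−1.62 to 0.36), Ccl2 (−1.76 to 0.25), Ccl7 (−1.70 to 0.11), Ms4a1 (−0.011 to 1.04), Tlr8 (−0.94 to 0.014), Tlr7 (−0.75 to 0.16) and Ccr2 (−0.37 to 0.53); on the deposited log2 values, Ctss (−0.45); without PLX+PTX replicate 1, Tnfrsf14 (−0.0050 to 0.88), Cdkn2a (−0.12 to 1.82), Cdkn2b (−0.85 to 1.12), Col6a3 (−1.22 to 0.052), Vegfa (−0.69 to 1.81), Adm (−0.10 to 2.72), Pdk1 (−0.090 to 0.94) and Sfrp1 (−0.081 to 0.74). The cause was not tested. No paired analysis was possible because the labels number the samples through the series and no number is shared between groups. Many lymphoid and neutrophil genes had raw counts near the negative controls.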
